A study of Mus musculus with 2 samples.

Results

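The glutathione peroxidases and the genes that supply them with selenium were followed in the kidney of adult mice through 10 genes, of the 43346 genes in the deposited tables. They were taken by symbol: the peroxidases Gpx1, Gpx2, Gpx3, Gpx4, Gpx7 and Gpx8, the selenium carrier Selenop, and Sephs2, Scly and Secisbp2, which recover selenium or place it into protein. Every one of the 10 was found, and none was chosen by its level. The study holds 1 group of 2 libraries, named replicate 1 and replicate 2, from kidneys of C57BL/6J mice, an inbred laboratory strain, at 8 weeks of age, with no altered allele and no agent given in the labels. Each library is described as littermates of both sexes pooled, with the health state unknown and a single donor label for both. An SD therefore measures only the spread between these libraries, and a p-value only sets their difference against counting error. There is no second group, and the libraries can only be described and compared with each other.

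Glutathione peroxidases reduce hydrogen peroxide and organic hydroperoxides with electrons from glutathione. Several of them carry at the catalytic site selenocysteine, an amino acid encoded by TGA, which otherwise ends translation and is read through with the help of a hairpin in the 3′ untranslated region of the messenger RNA. The proximal tubule of the kidney is known as the main source of the Gpx3 that circulates in plasma, and it takes up filtered selenoprotein P through the receptor Lrp2.

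Depth and tissue identity bear on all values below. The gene rows summed to 67252609 expected counts in replicate 1 and 87330097 in replicate 2. Of 10 proximal tubule markers, 9 reached 1 TPM in both libraries, led by Slc34a1, and their TPM summed to 8818 in replicate 1 and 6666 in replicate 2. The 5 skeletal muscle markers were all higher in replicate 2 (summed TPM 2.25 and 714), as were the 5 lymphocyte markers (2.54 and 27.3), while the 5 adrenal cortex markers were all higher in replicate 1 (29.55 and 0.58). All 5 brown and white fat markers (summed TPM 446 and 436) and all 5 erythroid markers (7200 and 7695) reached 1 TPM in both libraries. Of 4 Y-linked genes, Ddx3y, Eif2s3y and Uty had 0 counts in both libraries and Kdm5d had 0 and 3, against an Xist level of 26.8 and 31.4 TPM, which goes against the label of pooled sexes. Mitochondrial genes and their nuclear copies held 17.6% of TPM in replicate 1 and 26.7% in replicate 2. TPM, a transcript's share per unit of length, has a fixed sum, and over detected genes the median log2 ratio of TPM in replicate 2 to replicate 1 was -0.19. In whole tissue, fewer cells of a type and less RNA per cell cannot be told apart. The part of these differences, and of fat and red cells, in the values of the 10 genes was not tested.

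The catalytic codon separates the peroxidases into a selenium-dependent and a selenium-free kind, and the sequences below show it. Each is 45 bases of the coding strand, 5′ to 3′, with the catalytic codon in capitals, from GENCODE M21 transcripts on GRCm38. The codons of Gpx7 and Gpx8 were located by aligning their proteins to that of Gpx4.
Gpx1: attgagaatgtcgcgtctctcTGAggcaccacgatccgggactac
Gpx2: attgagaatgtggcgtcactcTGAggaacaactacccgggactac
Gpx3: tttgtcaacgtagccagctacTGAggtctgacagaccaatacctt
Gpx4: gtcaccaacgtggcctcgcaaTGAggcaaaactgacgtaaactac
Gpx7: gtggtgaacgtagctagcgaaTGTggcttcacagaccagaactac
Gpx8: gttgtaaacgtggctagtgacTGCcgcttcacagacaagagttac
In Gpx1, Gpx2, Gpx3 and Gpx4 the codon is TGA, whereas Gpx7 has TGT and Gpx8 has TGC, which encode cysteine. The windows lie at chr9:108339430-108339474 on the plus strand (Gpx1, exon 1 of 2), chr12:76795235-76795279 on the minus strand (Gpx2, exon 1 of 2) and chr11:54907235-54907279 on the plus strand (Gpx3, exon 2 of 5). Those of the remaining genes lie at chr10:80054716-80054760 on the plus strand (Gpx4, exon 3 of 7), chr4:108403409-108403453 on the minus strand (Gpx7, exon 2 of 3) and chr13:113045640-113045684 on the minus strand (Gpx8, exon 2 of 3). The selenocysteine is residue 47 of 201 in Gpx1, 40 of 190 in Gpx2, 73 of 226 in Gpx3 and 73 of 197 in Gpx4, and the cysteine is residue 56 of 186 in Gpx7 and 79 of 209 in Gpx8. Over aligned residues, Gpx1 and Gpx2 were the most alike of the 15 pairs (63.7% identical) and Gpx3 and Gpx8 the least (33.3%). Gpx7 and Gpx8 shared 48.9% of residues with each other.

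Of the supply genes, Selenop and Sephs2 encode selenoproteins themselves. Sephs2 makes selenophosphate, the selenium donor for selenocysteine synthesis, and Selenop carries 10 selenocysteines, most of them in its C-terminal part. The first selenocysteine codon of each is shown in the same form as above, followed by 87 coding bases from the end of Selenop that hold 5 such codons, also in capitals.
Sephs2: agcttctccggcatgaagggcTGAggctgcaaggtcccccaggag
Selenop: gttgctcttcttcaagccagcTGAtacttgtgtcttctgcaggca
Selenop end: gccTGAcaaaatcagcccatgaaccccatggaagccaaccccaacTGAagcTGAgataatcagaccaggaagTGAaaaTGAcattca
The Sephs2 window lies at chr7:127273710-127273754 on the minus strand, in the only exon of the gene, and its codon is number 63 of 452. The Selenop windows lie on the plus strand at chr15:3274827-3274871 (exon 2 of 5) and chr15:3279618-3279704 (exon 5). Selenop codons 59 and 377 of 380 are its first and last selenocysteines, and 9 of the 10 lie in the last exon.

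**Figure D1:**
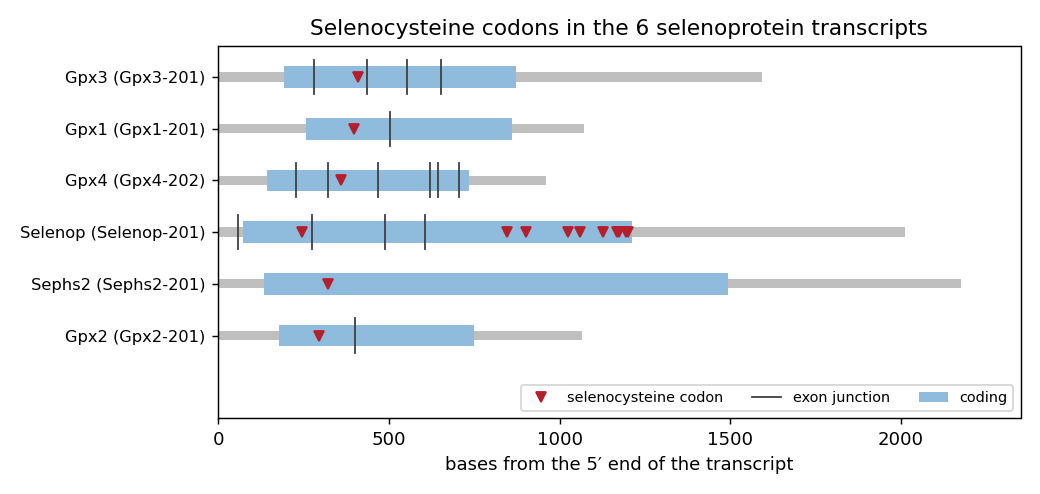
The leading or selenocysteine-coding transcript of each of the 6 selenoprotein genes, drawn to scale in bases from its 5′ end; wide bars are coding, thin bars untranslated, vertical lines exon junctions and triangles selenocysteine codons. In Gpx3, Gpx1, Gpx4, Selenop and Gpx2 the first such codon lies over 50 bases upstream of the last junction, and Sephs2 has no junction.

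The place of the selenocysteine codon relative to the last exon junction also differed among these genes. A stop codon more than about 50 bases upstream of the last junction is the usual mark of a transcript open to nonsense-mediated decay. For Gpx1 this decay is known to respond to selenium. The distance from the first selenocysteine codon to the last junction was 240 bases in Gpx3, 105 in Gpx1, 342 in Gpx4, 357 in Selenop and 102 in Gpx2. It was over 50 bases for 5 of the 6 selenoprotein genes described here and for 9 of the 18 other mouse selenoprotein genes. Of all 24, 8 had their first codon in the last exon and 2 lay upstream within the limit.

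Gpx3, which encodes the peroxidase secreted into plasma, had 22232 TPM in replicate 1 and 20937 in replicate 2, a mean of 21584.5 ± 915 (SD, n = 2). It ranked first of 21461 protein-coding nuclear genes and lay 3.47-fold above the next, Kap, a proximal tubule gene (6279 and 6151 TPM). Gpx3 alone held 2.22% of all TPM in replicate 1 and 2.09% in replicate 2, on 1655894 and 2174582 expected counts. With spike-ins, mitochondrial genes and nuclear copies left out of the sum, it held 2.78% in replicate 1 and 2.99% in replicate 2. The gene lies at chr11:54902453-54910377 on GRCm38, on the plus strand. Among the peroxidases its lead was wide, and the libraries did not overlap with those of any other.

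Gpx1, the main peroxidase of the cytosol, followed at 4274 and 3657 TPM (3966 ± 436, SD, n = 2; rank 14 among the same protein-coding genes). Gpx4, which reduces peroxidised phospholipids in membranes, had 1286 and 1009 TPM (1147 ± 196, SD, n = 2; rank 62). Gpx3 was 5.20-fold above Gpx1 in replicate 1 and 5.72-fold in replicate 2, and Gpx1 was 3.32-fold and 3.62-fold above Gpx4. These 3 genes made up nearly all peroxidase transcripts. By TPM, Gpx3 held 79.97% of the 6 peroxidases in replicate 1 and 81.7% in replicate 2 (80.9% ± 1.26, SD, n = 2), Gpx1 14.8% ± 0.773 and Gpx4 4.28% ± 0.484. As a share of expected counts, which also grows with transcript length, Gpx3 held 89.8% ± 0.834.

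The remaining peroxidases were far lower. Gpx8 and Gpx7, both resident in the endoplasmic reticulum, had 4.66 and 5.62 TPM (5.14 ± 0.679, SD, n = 2) and 5.81 and 4.08 TPM (4.95 ± 1.22, SD, n = 2). By TPM, Gpx8 held 0.0194% and Gpx7 0.0184% of peroxidase transcripts, and Gpx4 was 232-fold above Gpx7 by the means. Gpx7 was the higher of the pair in replicate 1 and Gpx8 in replicate 2, so their order was not set. Gpx2, the peroxidase of the gut epithelium, had 0.24 and 0.05 TPM, on 11 counts in replicate 1 and 3 in replicate 2. The gut markers Cdx1, Cdx2 and Fabp2 had 0 counts in both libraries, while Vil1, also a gene of the proximal tubule brush border, had 53.8 and 49.65 TPM. Gpx2 overlaps Fntb on the opposite strand, which had 1231 and 1557 counts, and the labels describe the libraries as stranded.

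Ordered by level, the selenium supply genes were Selenop, Sephs2, Scly and Secisbp2, from highest to lowest. Selenop, the plasma selenium carrier made mostly in the liver, had 420 and 394 TPM (407 ± 18.5, SD, n = 2; rank 249). The liver markers were low beside it, with the highest, Apoa2, at 15.2 and 13.75 TPM and a sum over 5 genes of 29.8 and 27.1. Sephs2 had 140 and 122 TPM (131 ± 12.5, SD, n = 2; rank 899). Scly, the lyase that frees selenium from selenocysteine, had 96.5 and 74.95 TPM (85.7 ± 15.2, SD, n = 2; rank 1391). Secisbp2, which binds the hairpin that directs selenocysteine insertion, had 20.2 and 15.5 TPM (17.8 ± 3.30, SD, n = 2; rank 5168).

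In every adjacent step of the order Gpx3, Gpx1, Gpx4, Selenop, Sephs2, Scly, Secisbp2, Gpx8, Gpx7 and Gpx2, both libraries of the higher gene lay above both of the lower, except between Gpx8 and Gpx7. That is 8 of 9 steps. The smallest of the 8 was from Sephs2 to Scly, at 1.45-fold in replicate 1 and 1.63-fold in replicate 2. Of the 10 genes, 9 reached 1 TPM in both libraries, which 30.2% of all genes in the tables did, and Gpx2 did not.

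**Figure D2:**
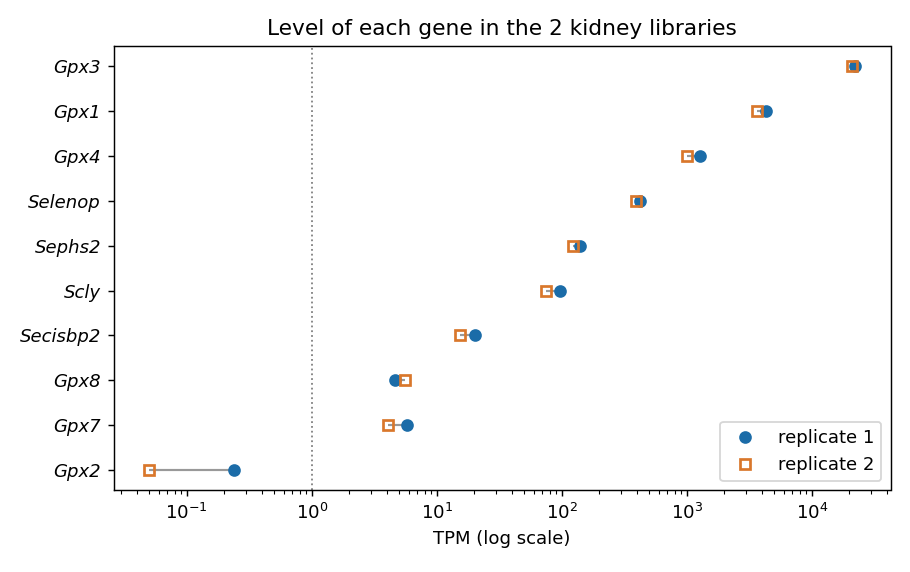
TPM of each gene on a log scale, with a filled circle for replicate 1, an open square for replicate 2 and a dotted line at 1 TPM. The levels run from 0.05 TPM for Gpx2 in replicate 2 to 22232 TPM for Gpx3 in replicate 1. The libraries of Gpx8 and Gpx7 overlap, and Gpx2 has the widest gap between libraries of the 10 genes.

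Gpx3 held most of the transcripts of all 24 selenoprotein genes. The 24 genes together held 2.93% of all TPM in replicate 1 and 2.71% in replicate 2 (2.82% ± 0.160, SD, n = 2). With spike-ins, mitochondrial genes and nuclear copies left out of the sum, they held 3.66% in replicate 1 and 3.86% in replicate 2. Which library was higher thus depended on the sum used. Of the TPM of the 24 genes, Gpx3 made up 75.8% in replicate 1 and 77.4% in replicate 2. Gpx1 made up 14.0% ± 0.747, Gpx4 4.06% ± 0.463, Selenop 1.44% ± 0.0166 and Sephs2 0.465% ± 0.0177. When each transcript was weighted by its number of selenocysteine codons, Gpx3 held 67.8% ± 0.892 of the codons, Selenop 12.8% ± 0.130 and Gpx1 12.4% ± 0.677. This weighting counts every transcript of a gene as coding for selenocysteine and measures no protein. With only the codons annotated in each transcript, an alternative chosen after seeing the data, Gpx3 held 75.98% ± 0.421, Selenop 11.9% ± 0.254 and Gpx1 4.44% ± 0.222. Selenop therefore stood beside Gpx1 by the first weighting and above it by the second, in both libraries.

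Most peroxidase and supply genes were read from a single leading isoform, and Gpx1 was the exception. The isoform share is the deposited percentage of a gene's TPM. Gpx3-201 held 99.9% of Gpx3 in both libraries, Scly-201 held 92.9% and 94.9% of Scly, and Gpx7-201 held 94.9% and 85.6% of Gpx7. For Gpx7 the rest was Gpx7-202, at 5.06% and 14.4%, which rested on 1.99 and 6 counts. Gpx2, Gpx8 and Sephs2 have a single transcript each in the tables.

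Gpx4 is known for a mitochondrial, a cytosolic and a nuclear form, which differ in where translation starts. The transcripts that differ in their first coding exon start as follows, with the annotated start codon in capitals.
Gpx4-202: ATGagctggggccgtctgagccgcttactt
Gpx4-201: ATGggccgcgcggccgcccgcaagcgggga
Gpx4-207: ATGcacgaattctcagccaaggacatcgac
The starts lie on the plus strand at chr10:80053632-80053661, chr10:80054049-80054078 and chr10:80054550-80054579. Their coding sequences hold 197, 253 and 157 codons. Gpx4-202 held 96.1% of Gpx4 TPM in replicate 1 and 95.96% in replicate 2. Gpx4-201 held 0.70% and 0.63%, and Gpx4-207 held 0.57% and 0.75%. The leading transcript was thus the same in both libraries, and the alternative first exons were each below 1%. None of these transcripts was assigned to a form here. Shares of transcripts cannot separate forms that start at different codons of the same transcript, and the start codon in use was not measured.

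In Selenop and Secisbp2 a transcript with a retained intron took the next largest share. The same held at far lower shares in Gpx4 (Gpx4-206, 1.86% and 1.35%) and Scly (Scly-209, 2.6% and 1.53%). Selenop-201 held 80.8% and 82.5% of Selenop, and Selenop-204, which is annotated as a retained intron, held 17.65% and 15.5%. Secisbp2-201 held 73.9% and 77.5% of Secisbp2, and the retained-intron transcript Secisbp2-205 held 20.85% and 19.5%. Selenop-204 and Secisbp2-205 are short models (516 and 784 bases, against 2013 and 3328 for the leading transcripts), so their shares of counts are smaller than their shares of TPM. Selenop-204 had 1239 and 1459 counts, and Secisbp2-205 had 131 and 132.

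Gpx1 was divided among 3 transcripts, and their proportions differed between the libraries. Gpx1-202 held 50.6% of Gpx1 TPM in replicate 1 and 36.3% in replicate 2, a difference of -14.3 percentage points. Gpx1-204 went the other way, from 17.7% in replicate 1 to 31.5% in replicate 2, and Gpx1-201 was near the same share, at 31.6% and 32.15%. In TPM, Gpx1-202 had 2164 and 1329 and Gpx1-204 had 756 and 1151. Both are shorter models than Gpx1-201 (787 and 653 bases against 1072), so shares of counts differ from shares of TPM. Gpx1-202 had 67610 and 58504 counts and Gpx1-204 had 18172 and 39213. Gpx1-201 had 62848 and 76651 counts, the most of the 3 in replicate 2. The interval that the quantification gives for Gpx1-202 was 2119 to 2179 in replicate 1 and 1297 to 1347 in replicate 2, so the libraries differed by more than the stated uncertainty of the estimate, which covers 1 library at a time. Gpx1 was the only 1 of the 7 detected genes with several transcripts whose leading share differed by 10 points or more. Over all detected genes with several transcripts, 24.9% did, and the median absolute difference was 4.55 points against 1.99 for these 7.

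The Gpx1 transcripts differ in where the annotation starts the protein. Gpx1-201 is the only 1 annotated with the selenocysteine codon. Gpx1-202 and Gpx1-204 contain the same TGA bases, but their annotated coding start lies 30 bases downstream of that codon, at position 108339481 of chromosome 9. The second exon of Gpx1-202 begins 3 bases downstream of that of Gpx1-201. In Gpx1-204, 104 bases of the first exon are spliced out. The 3′ end of both lies 93 bases upstream of that of Gpx1-201. Transcripts holding the TGA bases made up 99.99% and 100% of Gpx1 TPM, against 31.6% and 32.15% for the transcript annotated with selenocysteine. Which start is used was not measured.

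**Figure D3:**
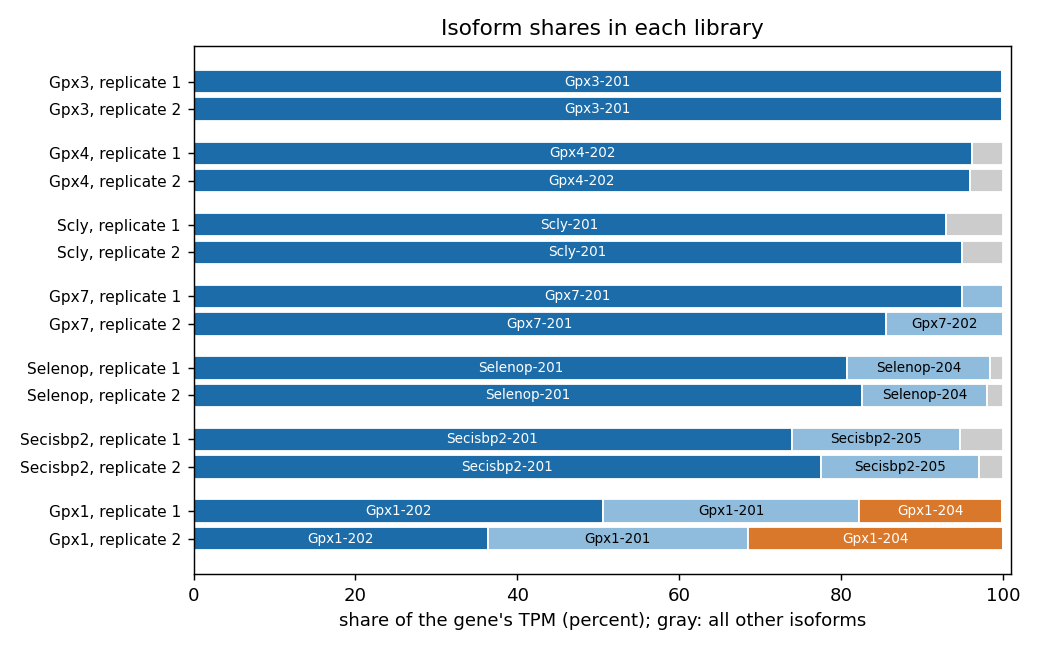
Share of each gene's TPM held by its isoforms, in percent, with replicate 1 above replicate 2 for each of the 7 genes that have several transcripts; gray is the sum of isoforms under 10% in both libraries. Gpx3, Gpx4 and Scly are nearly single-isoform, and in Gpx1 the shares of Gpx1-202 and Gpx1-204 change places in part between libraries.

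Between the libraries, the 10 genes differed little in size. Counts were brought to a common scale with edgeR's TMM factors (a trimmed mean of log ratios). A gene was called at a ratio of 2-fold or more with p below 0.05 in a two-sided exact binomial test, after Benjamini-Hochberg adjustment. This compares the reads of 2 libraries and not conditions, and its intervals cover counting error only. Of the 10 genes 1, Gpx2, was called, against 7.77% of the 18723 genes tested. Gpx2 was called lower in replicate 2, as 2.4% of tested genes were, and none was called higher, as 5.37% were. Calls were rarer among detected genes. Of 13100 such genes tested, 189 were called higher and 55 lower in replicate 2, and Gpx2 is not among the detected genes. The median absolute log2 ratio was 0.16 for the 10 genes, 0.25 for all tested genes and 0.19 for all detected genes.

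For the abundant genes even small ratios exceeded counting error. By adjusted p alone, 9 of the 10 differed, as did 56.8% of all tested genes. In scaled counts Gpx3 was 1.07-fold higher in replicate 2 (95% interval 1.06 to 1.07) and Selenop 1.08-fold higher (1.07 to 1.10; exact binomial adjusted p = 2.47e-28). Gpx1 (ratio of replicate 2 to replicate 1 0.952, interval 0.945 to 0.959), Gpx4 (0.893, 0.882 to 0.903), Scly (0.882, 0.858 to 0.906) and Secisbp2 (0.898, 0.852 to 0.947) were lower in replicate 2, each with an exact binomial adjusted p of 0.000167 or less. Sephs2 did not pass with TMM scaling (0.991, interval 0.963 to 1.02; exact binomial adjusted p = 0.625) but did when scaled by total counts only (log2 ratio -0.089, exact binomial adjusted p = 6.11e-05).

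The low peroxidases had the wider ratios and the wider intervals. Gpx8 was 1.37-fold higher in replicate 2 (interval 1.15 to 1.64; exact binomial adjusted p = 0.000909) on 203 and 343 counts. Gpx7 was 1.37-fold higher in replicate 1 (1.17 to 1.61; exact binomial adjusted p = 0.000278) on 323 and 290 counts. Gpx2 was 4.52-fold higher in replicate 1, with an interval of 1.19 to 25.2 (exact binomial adjusted p = 0.0396), and its 3 counts in replicate 2 equal the limit that a count of 0 allows. Gpx3 and Selenop were higher in replicate 2 by scaled counts and lower there by TPM, with TPM ratios of 0.942 and 0.938. By TPM, 9 of the 10 were lower in replicate 2.

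**Figure D4:**
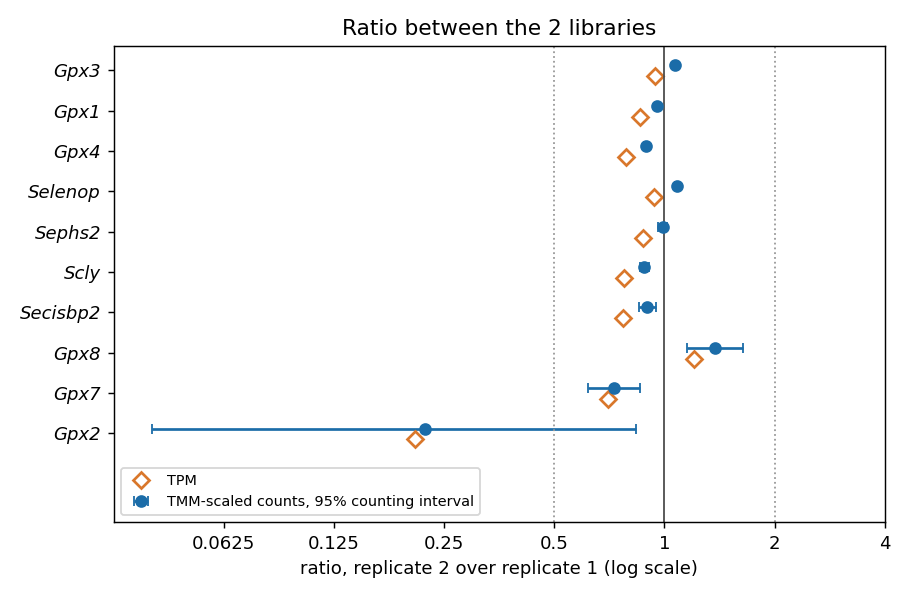
Ratio of replicate 2 to replicate 1 on a log scale, as TMM-scaled counts with exact 95% counting intervals (circles) and as TPM (diamonds); dotted lines mark a 2-fold difference. Only Gpx2 passes 2-fold, with an interval from 0.0396 to 0.838, and for every gene the TPM ratio lies below that of scaled counts.

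Sequence shared with other genes limits the values of Gpx4 and Gpx2. Of the 31-base words of the leading Gpx4 transcript, 74.1% also occur in another gene. Nearly all of them lie in Gpx4-ps2 (73.6%), annotated as a transcribed processed pseudogene, whose level was not analysed here. For Gpx2 the share was 28.5%, all in Gpx2-ps1, which had 0 counts in both libraries. Gpx3 shared 0.639% of its words, all of them found in Gpx5, which had 2 and 0 counts. Some of these words also occur in a second gene, which was not identified here. The other 7 genes shared none. The level of Sephs2 rests on a model of 1359 bases in the tables, which equals the coding part with its stop codon, whereas GENCODE M21 gives 2177 bases for the transcript. Reads from its untranslated regions were therefore outside the model.

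Most other selenoprotein genes were detected, at levels below those of the abundant peroxidases. Of the 18 other selenoproteins, 15 reached 1 TPM in both libraries, none was called between libraries, and the median level was 33.6 TPM in replicate 1 and 34.5 in replicate 2. Of 13100 detected genes tested, only 189 were called higher and 55 lower in replicate 2. A short list with none called, here or below, is therefore not set apart by it. The highest were Selenow (186 ± 6.24 TPM, SD, n = 2), Selenof (173 ± 11.2), Msrb1, a reductase of oxidised methionine (135 ± 5.83), Selenom (108 ± 24.8) and Selenot (65.3 ± 3.23). The lowest were the deiodinases Dio2 and Dio3 (0.335 TPM each) and Selenov (0.07). Gpx3, Gpx1, Gpx4 and Selenop each lay above all 18 in both libraries.

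The genes of selenocysteine synthesis and insertion were also detected. All 10 of its other genes reached 1 TPM, none was called, and the median was 13.3 and 12.7 TPM. Rpl30, a ribosomal protein that also binds the insertion hairpin, was highest (133 ± 32.7 TPM, SD, n = 2), followed by the elongation factor Eefsec (24.7 ± 5.78), the kinase Pstk (22.2 ± 1.07), Trnau1ap (19.4 ± 0.863) and Sephs1 (16.3 ± 0.665). Sepsecs, which completes selenocysteine on its transfer RNA, had 7.96 ± 0.240 TPM, Ncl 6.21 ± 0.969 and Dhx36 3.14 ± 0.417. Sephs2 was 8.35-fold above its homologue Sephs1 in replicate 1 and 7.74-fold in replicate 2, and Secisbp2 was 2.07-fold and 1.60-fold above its homologue Secisbp2l. Scly, which releases selenium, was 11.9-fold and 9.62-fold above Sepsecs.

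The receptors for Selenop differed widely in level. Lrp2, the endocytic receptor of the proximal tubule, had 299.8 TPM in replicate 1 and 188 in replicate 2, and Lrp8, the receptor known from brain and testis, had 2.76 and 1.89. Lrp2 was 0.698 of its replicate 1 level in replicate 2 by scaled counts (interval 0.694 to 0.702), while Selenop itself was 1.08-fold higher there. By TPM, Selenop too was lower in replicate 2 (ratio 0.938). Lrp2 is also 1 of the 10 proximal tubule markers, of which 8 were lower and 2 higher in replicate 2 by scaled counts. By TPM, the Lrp2 transcript stood 109-fold above Lrp8 in replicate 1 and 99.2-fold in replicate 2. Neither receptor was called.

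A further peroxidase, Gpx6, known from the olfactory epithelium, had 23.4 and 17.1 TPM (20.3 ± 4.48, SD, n = 2), above Gpx7 and Gpx8 in both libraries. Its codon aligned to the selenocysteine of Gpx3 is TGT, number 73, so mouse Gpx6 belongs with the cysteine-containing kind. Gpx5, the epididymal form, was at 0.03 and 0 TPM.

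The genes listed under glutathione and thioredoxin recycling, and other peroxide-removing enzymes, were all present. The first list includes thioredoxins and glutaredoxins themselves, while the thioredoxin reductases were counted among the other selenoproteins. The 6 recycling genes had a median of 87.5 and 79.5 TPM: Txn2 was at 288 ± 37.0, Txn1 at 239 ± 14.8, Glrx5 at 109 ± 7.70, Gsr, the glutathione reductase, at 58.3 ± 3.56, Glrx at 36.6 ± 0.778 and Glrx2 at 19.8 ± 1.23 (SD, n = 2). The 7 other peroxide-removing genes had a median of 231 and 245 TPM. Prdx5 was highest (1345 ± 191 TPM, SD, n = 2), then catalase, Cat (402 ± 0.544), Prdx1 (264 ± 70.1), Prdx3 (257 ± 22.6), Prdx2 (238 ± 10.2), Prdx6 (106 ± 23.6) and Prdx4 (29.5 ± 1.32). None of these 13 genes was called between libraries. Gpx3 and Gpx1 lay above all of them in both libraries, whereas Gpx4 was above Prdx5 in replicate 1 and below it in replicate 2.

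**Figure D5:**
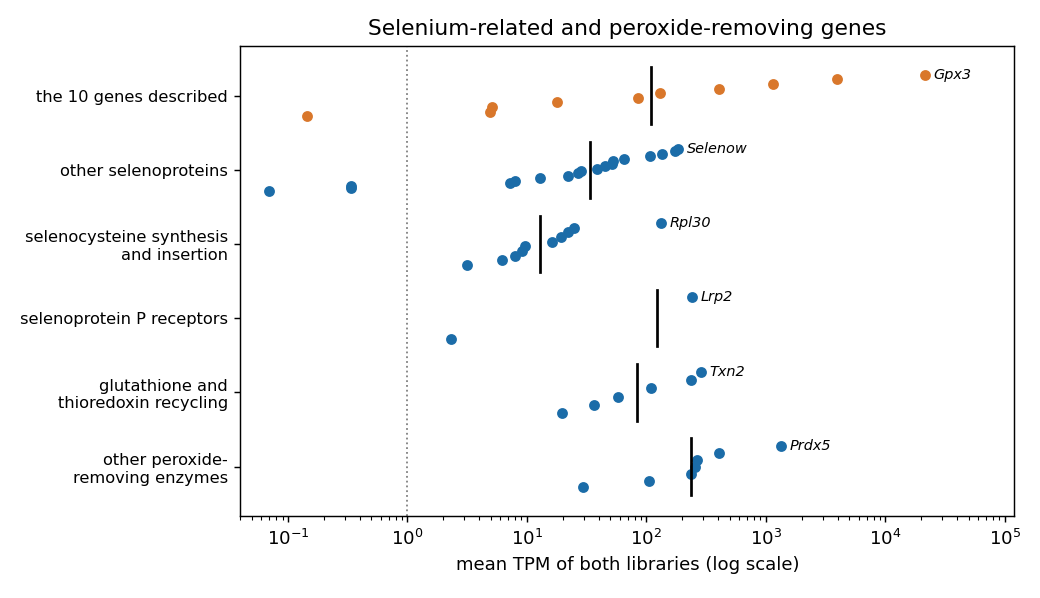
Mean TPM of both libraries on a log scale for the 10 genes and for 5 related lists (Gpx5 and Gpx6 are not drawn), with 1 point per gene, a vertical bar at the mean of the 2 library medians and a dotted line at 1 TPM; the highest gene of each list is named. Gpx3 lies to the right of every other point, and 4 of the points drawn, those of Gpx2, Dio2, Dio3 and Selenov, lie under 1 TPM.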

How the data were processed

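RNA of 2 kidney libraries was analysed from the deposited gene and transcript tables. Per the labels, the libraries were stranded paired-end reads of 76 nt from polyadenylated RNA over 200 nt, depleted of ribosomal RNA. Per the text records deposited with the tables, they are on mm10 with annotation M4. Aligner and quantifier: not given in the sources used here. Expected counts and TPM (also as a posterior mean) were deposited per gene and transcript. Per the file headers, the isoform share is in percent, and the SD of each count and the bounds of each TPM interval are signal values of the quantification, not of replicates. Rows with numeric identifiers and spike-ins (26345) were left out, with spike-ins at 1.59% and 2.29% of expected counts. The mm9 junction and contig tables were not used.

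Computed here were mean and SD of TPM and ratios between libraries. Expected counts were rounded and scaled by TMM (edgeR 4.0.16, R 4.3.3; factors 1.03 and 0.974) and compared by a two-sided exact binomial test (SciPy 1.17.1) over genes with 10 or more counts in sum, with Benjamini-Hochberg adjustment over all of them and exact Clopper-Pearson 95% intervals. A count of 0 allows up to 3 counts. The test was checked on simulated data. Alternatives used DESeq2 1.42.0 size factors, total counts, other thresholds, posterior means and TPM rescaled without spike-ins, mitochondrial genes and their nuclear copies. Names, exons and sequences came from GENCODE M21 on GRCm38; proteins were aligned in Biopython 1.88 with BLOSUM62, a gap opening of 10 and an extension of 0.5.

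All 10 genes are named. Of related lists, all genes are named in lists of 6 or fewer, otherwise the 5 highest, the 3 lowest and any gene called; the remaining peroxiredoxins fall under this rule too. The genes and lists were chosen with earlier results of these data known. With 2 libraries of 1 group there is no pattern across conditions, so genes of like pattern were not sought.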

Additional observations from a re-analysis of the deposited data

How the results depend on the processing

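No paired analysis was possible because the data hold 1 group. Rescaling TPM without spike-ins, mitochondrial genes and nuclear copies raised the means to 28811 for Gpx3, 5276 for Gpx1, 1522 for Gpx4, 544 for Selenop, 175 for Sephs2, 114 for Scly, 23.6 for Secisbp2, 6.92 for Gpx8 and 6.54 for Gpx7, and the selenoprotein share to 3.76%, by construction of a smaller sum. With an adjusted p alone, 9 of the 10 genes were called in place of 1. As TPM with a pseudocount of 1, the log2 ratio turned from 0.092 to -0.087 for Gpx3 and from 0.12 to -0.092 for Selenop; the cause was not tested. By expected counts the Gpx3 share was 89.8%. Over detected genes only, the median of other selenoproteins was 45.2 TPM and that of Gpx5 and Gpx6 20.3, since fewer genes entered. DESeq2 size factors and total counts changed no direction of the 10 genes and no call at 2-fold or more. By adjusted p alone, total counts gave 10 of 10, with Sephs2 at 6.11e-05 against 0.625 with TMM and 0.397 with DESeq2 size factors. Over these scalings the adjusted p of Gpx2 lay between 0.0305 and 0.0396. A single group of 2 libraries limits every SD, and Gpx2 is limited by its 11 and 3 counts.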
